A study of Mus musculus with 4 samples.

Results

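Of the 32285 genes in the count tables, 33 genes of the lysosome were followed here across photothrombotic (PT) injury of the mouse cortex, in which a light-activated dye clots small vessels and leaves a focal ischaemic lesion. The genes were picked by symbol as genes of the lysosome, with earlier results of these data known. Their counts beside shares of all genes are therefore a description. The 33 comprised 9 cysteine proteases, 3 other peptidases, 7 glycan-degrading enzymes and 4 genes of lipid handling. The rest were 6 membrane proteins, 2 subunits of the proton pump and 2 other luminal proteins. The assay was Visium spatial transcriptomics on fresh frozen brain, in which polyadenylated RNA of a cryosection is captured on a grid of barcoded spots and counted as unique molecular identifiers (UMIs). Each of 4 capture areas carried 2 slices, 1 mouse each. They came from 1 wild-type (WT) mouse at rest, 1 WT mouse at 2 days post-injury (dpi), 2 WT mice at 7 dpi, 2 WT mice at 21 dpi, and 2 Cthrc1(creER); R26(DTA) mice at 21 dpi, called deleter mice below. In deleter mice tamoxifen is meant to remove cells that express Cthrc1, a gene of profibrotic myofibroblasts, but the study's methods call that loss undetectable, and these slices were set aside there. The labels give neither strain nor age.

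Lysosomes are acidic compartments in which proteins, glycans and lipids taken up by phagocytosis or delivered by autophagy are degraded. Cathepsins and glycosidases do the cutting, the vacuolar proton pump (V-ATPase) keeps the lumen acidic, and heavily glycosylated membrane proteins line the organelle. After brain injury, microglia and infiltrating macrophages take up dead cells and myelin and are rich in lysosomes, and neurons depend on the same organelle for turnover of their own proteins.

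Every slice was divided into 3 zones by a single gene, Col1a1, the main chain of fibrillar collagen I. Fibrotic spots held at least 5 Col1a1 UMIs per 10000, the ring was the tissue 1 to 3 hexagonal steps outside them, and the remaining spots are called other spots. At 7 and 21 dpi the fibrotic zone held 112 to 392 spots per slice, the ring 220 to 348 and the other zone 297 to 969. At rest only 3 spots passed the Col1a1 minimum, and of the 26 that passed at 2 dpi, 65.4% held a single Col1a1 UMI, so at those times only the other spots were compared. A spot covers several cells, and fewer cells of a type cannot be told apart from less RNA per cell. All levels below are UMIs of a gene per 10000 UMIs of a zone, and the slice is the replicate.

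The 8 slices held 827 to 1726 spots and 11332780 to 23677298 UMIs. The slice at 2 dpi stood apart, with a median of 2633.5 UMIs per spot against 12447 to 16158 in the others. The slices at rest and at 2 dpi shared a capture area, whereas 7 dpi, 21 dpi WT and 21 dpi deleter each had an area of their own, so among these 3 groups time or genotype cannot be told apart from the area. Xist gave 1013 to 1597 UMIs at rest, at 2 dpi, at 7 dpi and in deleter slice 2, and 1 to 19 in both WT slices at 21 dpi and in deleter slice 1, so among WT slices sex also moved with time. Cthrc1 itself read 0.132 and 0.101 per 10000 in fibrotic spots of the deleter slices (48 and 26 UMIs). It read 0.175 and 0.219 in those of the WT slices at 21 dpi, and 1.09 and 1.16 at 7 dpi. In other spots at 21 dpi it read 0.0767 and 0.0593 in the deleter and 0.0938 and 0.114 in the WT slices. With Cthrc1 this low at 21 dpi and each group in its own area, these values cannot check the deleter label.

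Many lysosomal genes carry the letters CACGTG near their start, the core of the element that the transcription factors TFEB and TFE3 bind. Promoter windows (RefSeq, GRCm38.p6, from 250 bases before to 50 after the start) were available for 28 of the 33 genes. CACGTG, which reads the same on both strands, was found in 11 of these 28 genes against 8.09% of 27025 genes with a window. The longer TCACGTGA, which contains it, was found in 5 of 28 against 1.12%. A form of 10 bases, TCACGTGA with a G before and a C after it, was found in 0 of the 28 and in 0.326% of all windows. The 6 stretches printed here are those of the 5 genes with the longer form and of Lamp1, which held 4 matches. They are shown because this group holds both genes that rose in fibrotic tissue (Ctsd, Ctsa, Gla and Lamp1) and genes that did not (Mcoln1, Atp6v1a). Each is 30 bases long, 5′ to 3′ on the strand of the gene, with CACGTG in capitals.
Ctsd, chr7:142387908-142387937, minus strand: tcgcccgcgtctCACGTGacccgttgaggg
Ctsa, chr2:164833766-164833795, plus strand: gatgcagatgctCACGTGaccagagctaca
Gla, chrX:134601182-134601211, minus strand: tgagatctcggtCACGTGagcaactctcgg
Mcoln1, chr8:3500462-3500491, plus strand: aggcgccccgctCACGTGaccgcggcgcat
Atp6v1a, chr16:44139373-44139402, minus strand: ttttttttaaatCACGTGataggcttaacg
Lamp1, chr8:13159134-13159163, plus strand: acgtgaccacatCACGTGcggaacggagcc
By the GENCODE M21 annotation the motif lay in an untranslated exon in Ctsd, Ctsa and Mcoln1, in an intron in Atp6v1a, and upstream of the gene in Gla and Lamp1. A match is a description of these letters and not of a bound site.

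Taken as a sum, transcripts of the 33 genes were most abundant in fibrotic tissue at 7 and 21 dpi. At 7 dpi they made up 325 and 375 UMIs per 10000 in fibrotic spots, 243 and 352 in the ring, and 109 and 112 in other spots. The largest parts of the sum in fibrotic spots at 7 dpi were Ctsd (106 and 144) and Ctsb (57.3 and 61.4). In the WT slices at 21 dpi the sums were 279 and 300 in fibrotic spots, 115 and 133 in the ring, and 52.1 and 69.1 in other spots. The ring therefore lay near the fibrotic level at 7 dpi and below 0.5 of it at 21 dpi. Other spots held 33.3 at rest and 59.4 at 2 dpi, and the deleter slices at 21 dpi held 252 and 250, 95.5 and 126, and 49.1 and 49.7 in the same order of zones. No zone of an injured slice fell below the level of other spots at rest.

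**Figure D1:**
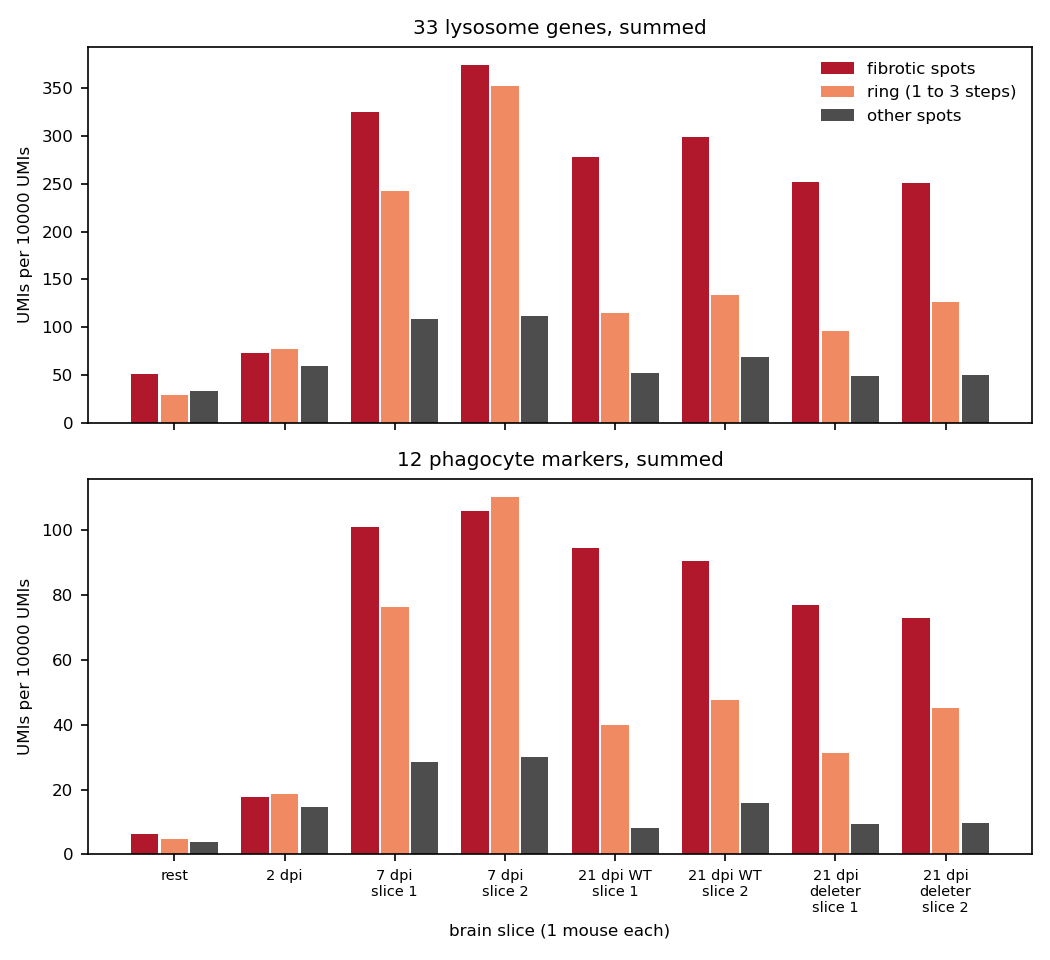
Summed UMIs of the 33 lysosome genes and of the 12 phagocyte markers per 10000 UMIs (vertical axes, from 0) in each of the 8 slices, with 1 bar per zone. At 7 dpi the lysosome sum is high in fibrotic spots (325 and 375) and in the ring (243 and 352), and at 21 dpi in fibrotic spots, where the WT slices read 279 and 300. The fibrotic bars at rest (3 spots) and at 2 dpi (26 spots, 65.4% with a single Col1a1 UMI) were not compared.

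Markers of phagocytes, the cell class of microglia and macrophages, moved with the lysosome sum. The 12 markers (Aif1, Csf1r, Tyrobp, Fcer1g, C1qa, C1qb, C1qc, Itgam, Cx3cr1, Trem2, Ptprc and Spi1) summed to 73.0 to 106 per 10000 in fibrotic spots of the 6 slices at 7 and 21 dpi, to 31.3 to 110 in the ring and to 8.17 to 29.97 in other spots, and none was at 0 in any of these zones. All 12 passed the test as higher in fibrotic than in other spots at both times. Fibroblast markers other than Col1a1 (5 of 5, medians of 4.79 and 5.40 on the log2 scale at 7 and 21 dpi), monocyte and neutrophil markers (5 of 5, 4.51 and 4.12) and border macrophage markers (4 of 5, 2.87 and 3.46) rose there too. Of 6 lymphocyte and plasma cell markers 4 passed the filter for low counts. The 6 summed to 0.0341 and 0.0590 per 10000 in fibrotic spots at 7 dpi and to 12.4 and 9.01 in those of the WT slices at 21 dpi. These genes can enter the test through fibrotic spots at 21 dpi alone, so a rise there was nearly fixed in advance. It was found in 4 of 4 cases (median 4.10). At 7 dpi, where counts were this low, none of the 4 passed the edgeR threshold (median 1.52). Neuron markers ran the other way, from 29.7 to 63.9 per 10000 in other spots to 8.02 to 13.1 in fibrotic spots. The part of any of these shifts in the results on lysosome genes was not tested.

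Fibrotic spots were first compared with other spots of the same slices, which asks where in the injured cortex lysosome genes are expressed. In both WT time points 30 of the 33 genes rose and 1 fell in fibrotic tissue (edgeR adjusted p under 0.05). Over all 14989 genes tested, 25.3% rose and 22.9% fell at 7 dpi, and 28.5% rose and 27.9% fell at 21 dpi. The median log2 fold change of the lysosome genes was 1.68 at 7 dpi and 2.40 at 21 dpi, against -0.01 for all genes at each time. In the deleter slices 31 rose and 1 fell, with 29.2% and 27.8% of all genes called in those directions, and the median was 2.26. The level of 29 of the 33 genes was higher in fibrotic than in other spots in all 6 slices, against 28% of all genes. Depth and the mitochondrial share moved with this contrast. At 7 dpi the median UMIs per spot were 9206.5 and 4923.5 in fibrotic against 17857 and 16701 in other spots, and at 21 dpi in WT slices 13879 and 10828 against 12903.5 and 12998. Mitochondrial genes took 6.41% to 10.1% of UMIs in fibrotic spots of the 6 slices and 10.04% to 16.7% in other spots, with the fibrotic value lower in each slice. With only spots of at least 1000 UMIs, 31 genes were called in each WT comparison, the number given by all spots. That setting could not test depth, since it removed no fibrotic spot from these slices and no other spot at 7 dpi. The part of depth and of the mitochondrial share was not tested.

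**Figure D2:**
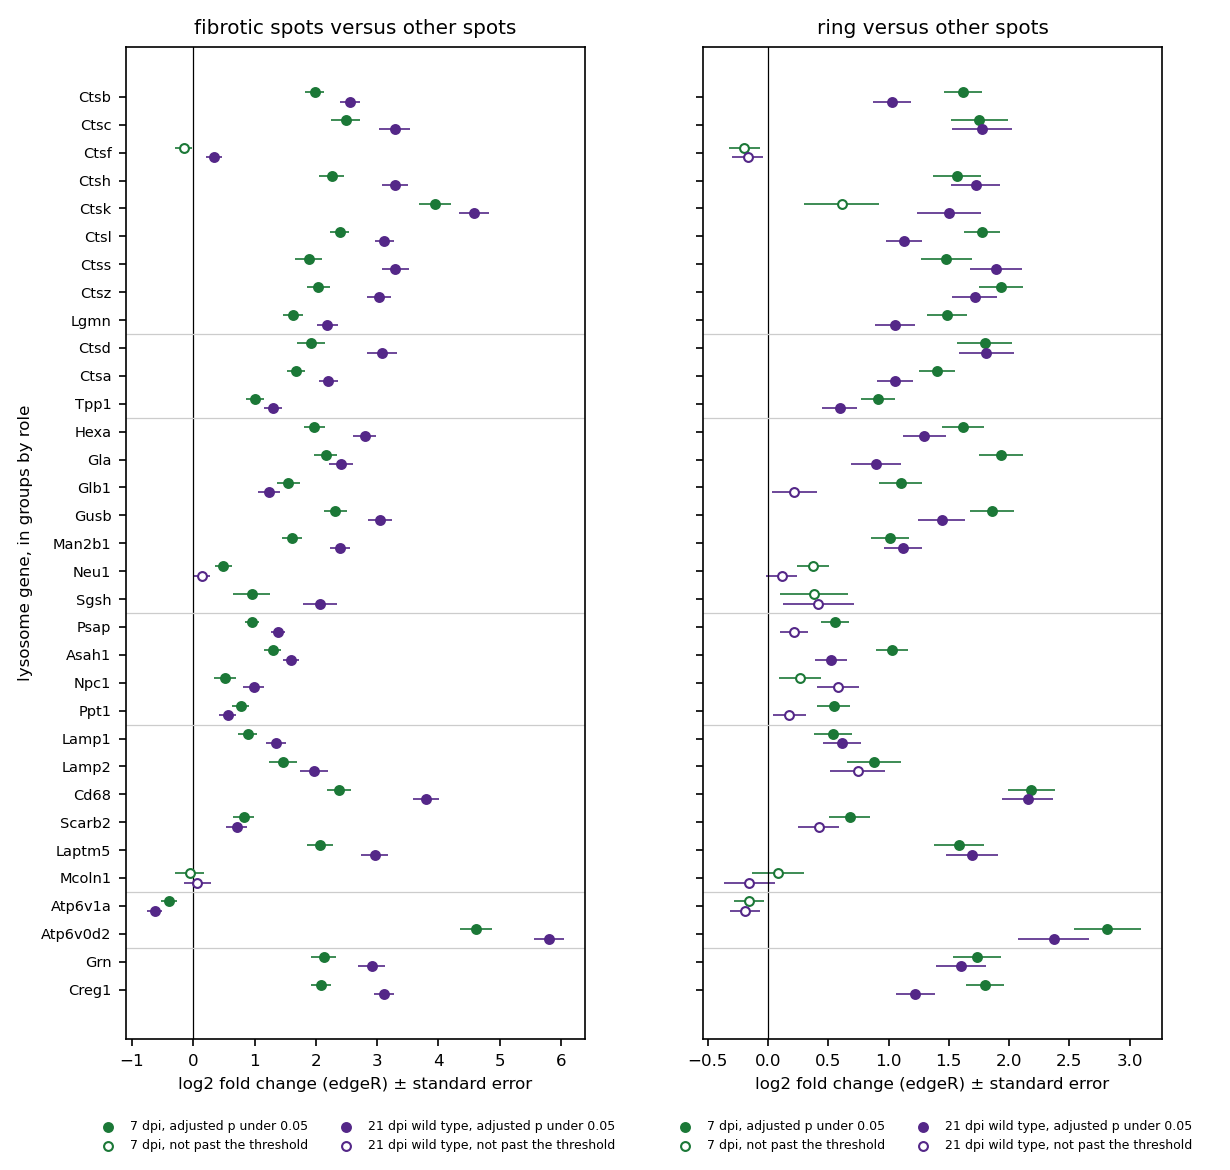
Log2 fold changes from edgeR (horizontal axes) of the 33 lysosome genes, in groups by role, for fibrotic over other spots (left) and ring over other spots (right), with bars of 1 standard error. Filled points passed the adjusted p threshold. Atp6v0d2 and Ctsk lie farthest right for fibrotic spots, and Atp6v1a lies left of 0.

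The cysteine proteases cleave proteins inside the lysosome, and 8 of the 9 rose in fibrotic tissue at 7 dpi and all 9 at 21 dpi. Ctsk (chr3:95499256-95509362), cathepsin K, is a collagenase known from osteoclasts and fibroblasts. At 7 dpi its level was 1.44 and 0.803 UMIs per 10000 in fibrotic spots and 0.0581 and 0.0910 in other spots, and at 21 dpi 2.26 and 2.11 against 0.0827 and 0.100. The summed Ctsk level was higher in fibrotic than in other spots in each of the 6 slices. The log2 fold change was 3.94 ± 0.26 at 7 dpi and 4.58 ± 0.25 at 21 dpi (edgeR adjusted p = 5.3e-07 and 4.3e-08). Here and below, ± gives the standard error (SE) from the edgeR fit over all 6 slices, to which each group gave 2. Ctsc, cathepsin C, the dipeptidyl peptidase that activates granule serine proteases, read 2.28 and 2.95 in fibrotic against 0.433 and 0.572 in other spots at 7 dpi, a log2 fold change of 2.49 ± 0.24. Ctsl, cathepsin L, an endopeptidase, read 19.8 and 23.7 against 4.31 and 4.43 at 7 dpi (2.39 ± 0.16).

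At 21 dpi the proteases that stood next to Ctsk were Ctss and Ctsh. Ctss, cathepsin S, trims the invariant chain of MHC class II in myeloid cells, and its level was 20.9 and 21.5 in fibrotic spots of the WT slices against 1.57 and 2.98 in other spots. Ctsh, cathepsin H, an aminopeptidase, read 4.03 and 3.80 against 0.302 and 0.525. Their log2 fold changes were 3.30 ± 0.23 and 3.29 ± 0.21 (edgeR adjusted p = 2.3e-07 and 1.6e-07). Ctsb, Ctsz and the asparaginyl endopeptidase Lgmn rose at both times as well, by 1.62 to 2.04 on the log2 scale at 7 dpi and by 2.19 to 3.04 at 21 dpi. Ctsf, cathepsin F, was the exception, with a log2 fold change of -0.16 ± 0.14 at 7 dpi (adjusted p = 0.37) and 0.34 ± 0.13 at 21 dpi (adjusted p = 0.040), a call that was lost without WT slice 1 (0.18, adjusted p = 0.45).

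The remaining peptidases all rose. Ctsd (chr7:142375911-142388038), cathepsin D, is the main aspartic protease of the lysosome, and its level at 7 dpi was 106 and 144 in fibrotic spots against 32.4 and 36.8 in other spots. At 21 dpi it was 76.1 and 77.6 against 6.15 and 14.0, and other spots at rest held 2.70. The log2 fold change was 1.92 ± 0.23 at 7 dpi and 3.08 ± 0.24 at 21 dpi. Ctsa, cathepsin A, which protects the sialidase and beta-galactosidase from degradation, and Tpp1, tripeptidyl peptidase 1, rose by 1.68 and 1.01 at 7 dpi and by 2.21 and 1.31 at 21 dpi.

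Enzymes that strip sugars from glycoproteins and glycolipids rose as a group, 7 of 7 at 7 dpi and 6 of 7 at 21 dpi, by 0.49 to 2.32 and by 1.24 to 3.05 on the log2 scale. Gusb, beta-glucuronidase, read 3.23 and 3.71 in fibrotic against 0.732 and 0.749 in other spots at 7 dpi, and Hexa, the alpha subunit of beta-hexosaminidase, 5.86 and 6.26 against 1.56 and 1.74. Gla (alpha-galactosidase A), Glb1 (beta-galactosidase), Man2b1 (alpha-mannosidase) and Sgsh, which acts on heparan sulfate, rose at both times. The call of Sgsh at 7 dpi (0.95 ± 0.30) was lost without slice 1 (0.35, adjusted p = 0.70). Neu1, the sialidase, gave 0.49 ± 0.14 at 7 dpi (adjusted p = 0.012), a call lost without either slice (0.51 and 0.44, adjusted p = 0.16 and 0.11), and 0.14 ± 0.14 at 21 dpi (adjusted p = 0.42).

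Genes of lipid handling rose in 4 of 4 cases at each time, with smaller fold changes. Psap, whose product is cut into the saposins that present lipids to enzymes, held 26.7 and 23.2 per 10000 in fibrotic spots at 7 dpi and 33.4 and 37.3 at 21 dpi, against 13.3 to 14.3 in other spots of these 4 slices. Asah1, acid ceramidase, rose by 1.30 and 1.60, and Ppt1, palmitoyl-protein thioesterase 1, by 0.77 and 0.56 on the log2 scale at 7 and 21 dpi. Without WT slice 1 the call of Ppt1 at 21 dpi was lost (0.46, adjusted p = 0.092). Npc1, which exports cholesterol from the lysosome, rose by 0.52 ± 0.18 at 7 dpi (adjusted p = 0.033) and 0.98 ± 0.18 at 21 dpi, and its call at 7 dpi was lost without slice 1 (0.57, adjusted p = 0.21) or slice 2 (0.44, adjusted p = 0.25).

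Among the membrane proteins, Cd68 (chr11:69664213-69666153), the LAMP-family protein of macrophages, showed the widest separation. Its level was 4.63 and 4.57 in fibrotic against 1.03 and 0.854 in other spots at 7 dpi, and 3.02 and 3.35 against 0.162 and 0.313 at 21 dpi. The log2 fold changes were 2.38 ± 0.20 and 3.80 ± 0.22 (edgeR adjusted p = 2.6e-06 and 6.5e-08). Laptm5, also a lysosomal membrane protein, rose by 2.07 and 2.96, while the ubiquitous Lamp1 and Lamp2 rose by 0.89 and 1.46 at 7 dpi and 1.35 and 1.97 at 21 dpi. Scarb2, the receptor that carries glucocerebrosidase to the lysosome, rose by 0.82 and 0.71, a call lost at 7 dpi without slice 1 (adjusted p = 0.050) and at 21 dpi without WT slice 1 (0.35, adjusted p = 0.18). Mcoln1, the calcium channel TRPML1, stayed between 0.118 and 0.235 per 10000 in every zone of the 6 slices and passed the threshold in none of the comparisons (log2 fold change -0.06 ± 0.24 at 7 dpi and 0.07 ± 0.22 at 21 dpi).

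The proton pump members moved in opposite directions. Atp6v0d2 (chr4:19876841-19922605), the d2 subunit of the membrane sector, found in osteoclasts and some macrophages, had the largest fold change of the 33 genes at each time. Its level was 0.546 and 0.531 in fibrotic spots at 7 dpi (240 and 45 UMIs) against 0.0300 and 0.0192 in other spots (16 and 22 UMIs), and 0.866 and 1.47 against 0.0202 and 0.0242 at 21 dpi. The log2 fold changes were 4.62 ± 0.26 and 5.80 ± 0.25 (edgeR adjusted p = 2.0e-07 and 1.1e-08). Atp6v1a (chr16:44085402-44139705), the catalytic subunit, was at 3.07 and 3.08 in fibrotic against 4.48 and 4.09 in other spots at 7 dpi, and 2.73 and 2.77 against 4.56 and 4.12 at 21 dpi. It fell by 0.40 ± 0.13 and by 0.63 ± 0.13 on the log2 scale, and the call at 7 dpi was lost without slice 1 (-0.34, adjusted p = 0.25) or slice 2 (-0.48, adjusted p = 0.065).

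Both other luminal proteins rose. Grn (chr11:102430315-102437048), progranulin, the secreted precursor of the granulins that reside in lysosomes, read 13.1 and 13.3 in fibrotic against 3.26 and 3.14 in other spots at 7 dpi, and 6.70 and 5.58 against 0.666 and 1.01 at 21 dpi. Creg1, a small luminal glycoprotein, read 3.39 and 4.10 against 0.976 and 0.890, and 3.91 and 4.16 against 0.416 and 0.545. Their log2 fold changes were 2.13 and 2.08 at 7 dpi and 2.91 and 3.11 at 21 dpi. In the deleter slices the leading genes were again Atp6v0d2 (6.20 ± 0.26), Ctsk (4.83 ± 0.25), Cd68 (3.91 ± 0.22), Ctsh (3.52 ± 0.21) and Ctss (3.25 ± 0.23), and Atp6v1a fell by 0.81 ± 0.13.

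Genes with and without the promoter motif both rose in fibrotic tissue. Of the 11 genes with CACGTG, 8 rose and 1 fell in fibrotic spots at 7 dpi, with a median log2 fold change of 1.55, and of the 17 genes with a window and no match all 17 rose, with a median of 1.97. At 21 dpi in WT slices these numbers were 9 rising, 1 falling and a median of 2.06 with the motif, and 16 rising and a median of 2.91 without it. Ctsd and Atp6v1a, whose stretches share TCACGTGA, moved in opposite directions.

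Other genes of the lysosome, taken from lists also chosen with earlier results of these data known, mostly followed the same pattern. Of 27 further hydrolases and cofactors, 21 rose and 2 fell in fibrotic spots at 7 dpi, and 23 rose and 2 fell at 21 dpi in WT slices, with median log2 fold changes of 1.22 and 1.63. Acp5, tartrate-resistant acid phosphatase, led at both times (3.99 ± 0.35 and 4.83 ± 0.35), followed by the nuclease Dnase2a at 7 dpi (2.40 ± 0.23) and the acid lipase Lipa at 21 dpi (3.51 ± 0.18). Ids, which removes sulfate from heparan and dermatan sulfate, fell by 0.90 and 1.19, and the sphingomyelinase Smpd1 fell by 0.55 and 0.47. Of 12 further membrane proteins 8 rose and 1 fell at each time, led by the tetraspanin Cd63 (1.89 ± 0.21 and 2.63 ± 0.21), with Laptm4b falling by 0.85 and 0.34.

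The remaining V-ATPase subunits did not rise together. Of 18, 3 rose and 8 fell at 7 dpi and 2 rose and 12 fell at 21 dpi in WT slices, with medians of -0.26 and -0.69. Those that rose most were Tcirg1, the a3 subunit known from osteoclasts (2.43 ± 0.19 and 3.37 ± 0.20), and Atp6v0e (1.48 ± 0.20 and 1.79 ± 0.20), and those that fell most were Atp6v0e2 (by 1.67 and 2.14) and Atp6v1g2 (by 1.41 and 2.30), both known as brain forms. Atp6v0d2 thus moved with Tcirg1, and Atp6v1a with the larger number of subunits that fell, in tissue where all 6 neuron markers fell too (median -1.69 at 7 dpi and -2.69 at 21 dpi). The part of neurons in these values was not tested.

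Regulators and inhibitors gave a mixed picture. Of 7 sorting and transcription factor genes 5 rose and 1 fell at each time. Igf2r, a receptor for mannose 6-phosphate, rose by 1.83 ± 0.18 and 1.66 ± 0.18, and the neuronal sorting receptor Sort1 fell by 1.33 and 1.35. Tfeb gave 0.57 ± 0.25 at 7 dpi (edgeR adjusted p = 0.082) and rose by 1.33 ± 0.24 at 21 dpi, while Mitf and Tfe3 rose at both times. Of the 3 cystatins, which inhibit cathepsins, Cst7 rose by 1.97 ± 0.46 and 2.50 ± 0.49 at 7 and 21 dpi and Cstb by 1.77 ± 0.16 and 2.14 ± 0.16, and Cst3 rose at 21 dpi (0.59 ± 0.14) and gave -0.33 ± 0.14 at 7 dpi (adjusted p = 0.072). The test of the difference between times gave -0.76 ± 0.34 for Tfeb (edgeR adjusted p = 0.34) and -0.93 ± 0.20 for Cst3 (adjusted p = 0.071).

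Around the fibrotic tissue, lysosome genes were raised in the ring as well. At 7 dpi 26 of the 33 genes rose over other spots and none fell, where 13.3% of all genes rose, and the median log2 fold change was 1.40 against 0.01. At 21 dpi in WT slices 22 rose and none fell, where 6.74% of all genes rose, with a median of 1.05 against 0.00. Levels in the ring exceeded those in other spots in all 6 slices for 30 of the 33 genes, against 18.5% of all genes. The count at 7 dpi fell when either slice was left out, and fell more without slice 2. The ring of slice 2 was richer in phagocyte markers (110 against 76.5 per 10000 in slice 1). The part of these markers in the count was not tested.

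Atp6v0d2 and Cd68 led the ring at both times. At 7 dpi Atp6v0d2 read 0.145 and 0.172 in the ring and Cd68 3.92 and 4.24, with log2 fold changes over other spots of 2.82 ± 0.28 and 2.19 ± 0.20. Next came Ctsz, cathepsin Z, a carboxypeptidase (1.94 ± 0.18), Gla (1.93 ± 0.18) and Gusb (1.86 ± 0.18). At 21 dpi they were followed by Ctss (1.90 ± 0.22), Ctsd (1.81 ± 0.23) and Ctsc (1.78 ± 0.25), with Atp6v0d2 at 2.37 ± 0.29 and Cd68 at 2.15 ± 0.21. Without WT slice 2 the call of Atp6v0d2 at 21 dpi was lost (1.69, adjusted p = 0.057). Ctsk was a contrast at 7 dpi: its level of 0.122 and 0.113 in the ring was above 0.0581 and 0.0910 in other spots in each slice without passing the threshold (0.61 ± 0.31, edgeR adjusted p = 0.19). At 21 dpi it read 0.293 and 0.248 in the ring and rose over other spots (1.50 ± 0.26, adjusted p = 0.0038), a call lost without WT slice 1 (1.31, adjusted p = 0.089).

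By role, 7 of 9 cysteine proteases rose in the ring at 7 dpi and 8 of 9 at 21 dpi, and the other peptidases rose at both times. Glycan-degrading enzymes rose in 5 of 7 and 4 of 7 cases, lipid genes in 3 of 4 and 1 of 4, and membrane proteins in 5 of 6 and 3 of 6. Among lipid genes Psap gave 0.55 ± 0.12 at 7 dpi (adjusted p = 0.0060), lost without slice 2 (0.42, adjusted p = 0.22), and 0.22 ± 0.12 at 21 dpi (adjusted p = 0.28). Genes below the threshold in the ring at both times were Ctsf, Neu1, Sgsh, Npc1, Mcoln1 and Atp6v1a.

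The fibrotic zone and its ring differed in different ways at 7 and 21 dpi. At 7 dpi only 7 genes were higher in fibrotic spots than in the ring and none was lower, where 7.41% of all genes rose, and the median difference was 0.35 on the log2 scale. At 21 dpi in WT slices 28 were higher and 1 was lower, where 20.1% of all genes rose and 20.2% fell, and the median was 1.27. Ctsk differed most at 7 dpi (3.33 ± 0.27, edgeR adjusted p = 1.6e-05), followed by Atp6v0d2 (1.80 ± 0.22, adjusted p = 0.00034), Ctsc (0.73 ± 0.23), Ctsh (0.69 ± 0.20) and Ctsl (0.62 ± 0.15), with Man2b1 and Psap passing at 0.59 and 0.40. Phagocyte markers gave no call between these zones at 7 dpi (0 of 12 by edgeR, median 0.17) and 11 of 12 higher in fibrotic spots at 21 dpi (median 1.17).

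These 7 calls were sensitive to the slices. Without slice 1 at 7 dpi Ctsk was the 1 gene past the threshold, and without slice 2 there were 4. Atp6v0d2 lost its call without slice 1 (1.61, adjusted p = 0.099), and Ctsc and Ctsh lost theirs without either slice (adjusted p = 0.67 and 0.084 for Ctsc, and 0.63 and 0.064 for Ctsh), as did Man2b1 (adjusted p = 0.66 and 0.051). Ctsl and Psap lost theirs without slice 1 (adjusted p = 0.40 and 0.72). At 21 dpi the largest differences were for Atp6v0d2 (3.43 ± 0.21), Ctsk (3.08 ± 0.23), Ctsl (1.99 ± 0.15), Creg1 (1.89 ± 0.16) and Sgsh (1.65 ± 0.29). Atp6v1a was lower in fibrotic spots (-0.44 ± 0.13, adjusted p = 0.015), a call lost without WT slice 2 (-0.34, adjusted p = 0.19).

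Distance from fibrotic tissue resolved the same pattern in single steps of the grid. In WT slices at 21 dpi the lysosome sum dropped from 279 and 300 at step 0 to 158 and 188 at step 1, 85.5 and 113 at step 2 and 74.5 and 88.8 at step 3. At 7 dpi slice 1 stayed between 227 and 256 from step 1 to step 4 and reached 113 only at step 6, and slice 2 rose from 375 at step 0 to 428 at step 1 before falling to 247 at step 3. The plateau of the sum at 7 dpi was thus wider than at 21 dpi in each slice, and phagocyte markers followed the same course, with 126 and 130 at steps 1 and 2 in slice 2. Ctsd had a large part in the rise of the sum to step 1 in slice 2, going from 144 to 184. Other genes went either way there, for example Lgmn from 15.0 to 17.5 and Psap from 23.2 to 22.1.

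**Figure D3:**
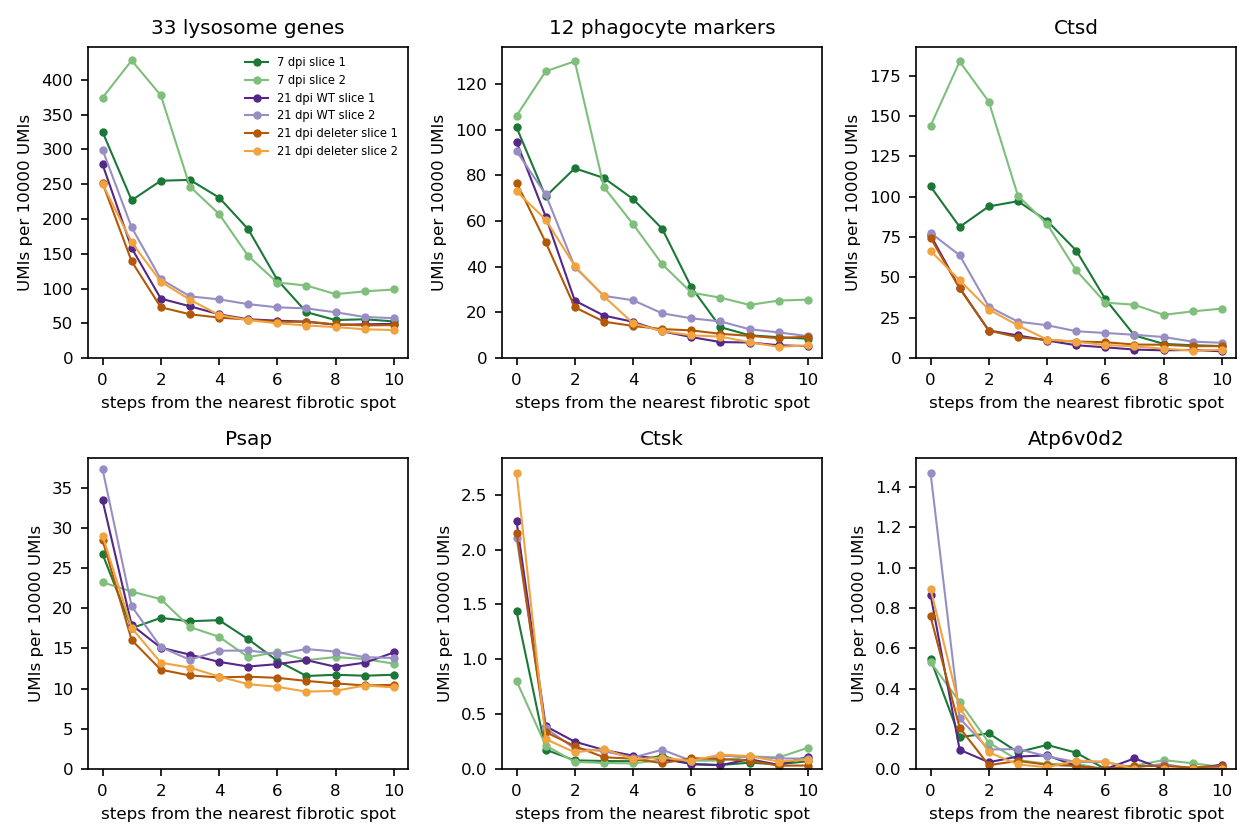
Levels in UMIs per 10000 (vertical axes) by hexagonal steps from the nearest fibrotic spot (horizontal axes, step 0 is fibrotic tissue), with 1 line per slice. Ctsk drops within the first step in every slice, for example from 2.26 to 0.391 in WT slice 1 at 21 dpi, while Ctsd stays high for several steps at 7 dpi.

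Single genes differed in how steeply they fell. Ctsd in slice 2 at 7 dpi read 144 at step 0, 184 at step 1 and 159 at step 2, and in slice 1 it still held 97.2 at step 3. Ctsk fell at once in all 6 slices, from 0.803 to 2.70 at step 0 to 0.177 to 0.391 at step 1. Atp6v0d2 went from 0.531 to 1.47 at step 0 to 0.0959 to 0.333 at step 1, and Atp6v1a rose from 2.50 to 3.08 at step 0 to 3.47 to 4.77 at step 3.

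Within the fibrotic zone Ctsk also tracked the amount of Col1a1. In WT slices at 21 dpi it read 0.576 and 0.965 per 10000 in spots with 5 to 10 Col1a1 UMIs per 10000, 1.63 and 2.35 with 10 to 30, and 4.41 and 3.80 with 30 or more. At 7 dpi the values were 0.459, 1.02 and 2.63 in slice 1 and 0.534, 1.09 and 1.05 in slice 2, where 11 spots made up the top class. Ctsd differed between slices in this respect. It read 52.0, 84.7 and 94.9 in WT slice 1, which is the same rising order, but 93.9, 70.6 and 60.05 in WT slice 2, 86.1, 132 and 87.9 in slice 1 at 7 dpi, and 147, 148 and 108 in slice 2 at 7 dpi. Across spots of each of the 6 slices, the correlation of Ctsk with the summed fibroblast markers (Col1a2, Col3a1, Dcn, Lum and Pdgfra) was 0.31 to 0.74 and with the phagocyte markers 0.17 to 0.54. Ctsd gave 0.48 to 0.78 and 0.87 to 0.95, and Atp6v1a correlated with neuron markers at 0.24 to 0.51. These are Pearson values on log-transformed levels, and spots of a slice share depth and neighbours.

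A comparison per phagocyte transcript gave a further description of the same difference between genes. The sum of the 33 genes per phagocyte marker UMI was lower in fibrotic than in other spots in each of the 6 slices. It was 3.22 and 3.53 against 3.82 and 3.74 at 7 dpi, and 2.94 and 3.30 against 6.38 and 4.37 in WT slices at 21 dpi. Psap per 100 such UMIs read 26.4 and 21.9 in fibrotic against 47.7 and 45.9 in other spots at 7 dpi. Genes went both ways: in WT slice 1 at 21 dpi Atp6v1a read 2.88 in fibrotic against 55.8 in other spots. In the same slice Ctss read 22.1 against 19.2 and Cd68 3.19 against 1.98. The sum counts RNA of all cells in a spot, so its ratio is no measure of lysosomal RNA per phagocyte. Per 100 phagocyte marker UMIs, Ctsd read 105 and 136 in fibrotic spots, 116 and 134 in the ring and 113 and 123 in other spots at 7 dpi. Its level per 10000 in these zones was 106 and 144, 89.1 and 148, and 32.4 and 36.8. The part of phagocytes in this level was not tested. Ctsk read 1.42 and 0.757 in fibrotic spots against 0.159 and 0.103 in the ring at 7 dpi, and 2.38 and 2.33 against 0.734 and 0.521 in WT slices at 21 dpi. Atp6v0d2 read 0.541 and 0.501 in fibrotic spots against 0.190 and 0.155 in the ring at 7 dpi. Markers used for osteoclasts were present in part. Of 5 listed, 3 passed the low-count filter (Acp5, Dcstamp and Nfatc1). The 5 summed to 0.0405 to 0.112 per 10000 in other spots of the 6 slices and to 0.543 to 1.47 in fibrotic spots. Genes this low elsewhere can pass the filter through fibrotic spots alone, so a rise there was nearly fixed in advance. The 3 rose in fibrotic over other spots at both times in WT slices, with medians of 3.68 at 7 dpi and 4.23 at 21 dpi. In the deleter slices 2 of the 3 rose. Acp5 was at 0.401 to 1.20 per 10000 in fibrotic spots of the 6 slices and Nfatc1 at 0.142 to 0.249, whereas Calcr was at 0 in 5 of the 6 and Ocstamp at 0 in 3.

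Time was compared next, between slices and therefore with group and capture area confounded. In fibrotic spots 4 genes were higher and 1 was lower at 7 than at 21 dpi in WT slices, where 1.89% and 2.5% of all 13289 genes were called in those directions. Grn was higher at 7 dpi (13.1 and 13.3 against 6.70 and 5.58), with a log2 fold change of 1.13 ± 0.14 (edgeR adjusted p = 0.0018). Ctsd (0.73 ± 0.17, adjusted p = 0.036), Cd68 (0.56 ± 0.14, adjusted p = 0.045) and Ctsz (0.53 ± 0.13, adjusted p = 0.044) were higher as well. Atp6v0d2 was lower at 7 dpi (-1.08 ± 0.24, adjusted p = 0.029), and Ctsk gave -0.87 ± 0.22 (adjusted p = 0.051). For these 6 genes the levels of the 2 slices at 7 dpi did not overlap those of the 2 WT slices at 21 dpi. The genes were picked by this same comparison, so that adds no support. Over all genes, 24.1% lay above and 23.6% below without overlap.

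**Figure D4:**
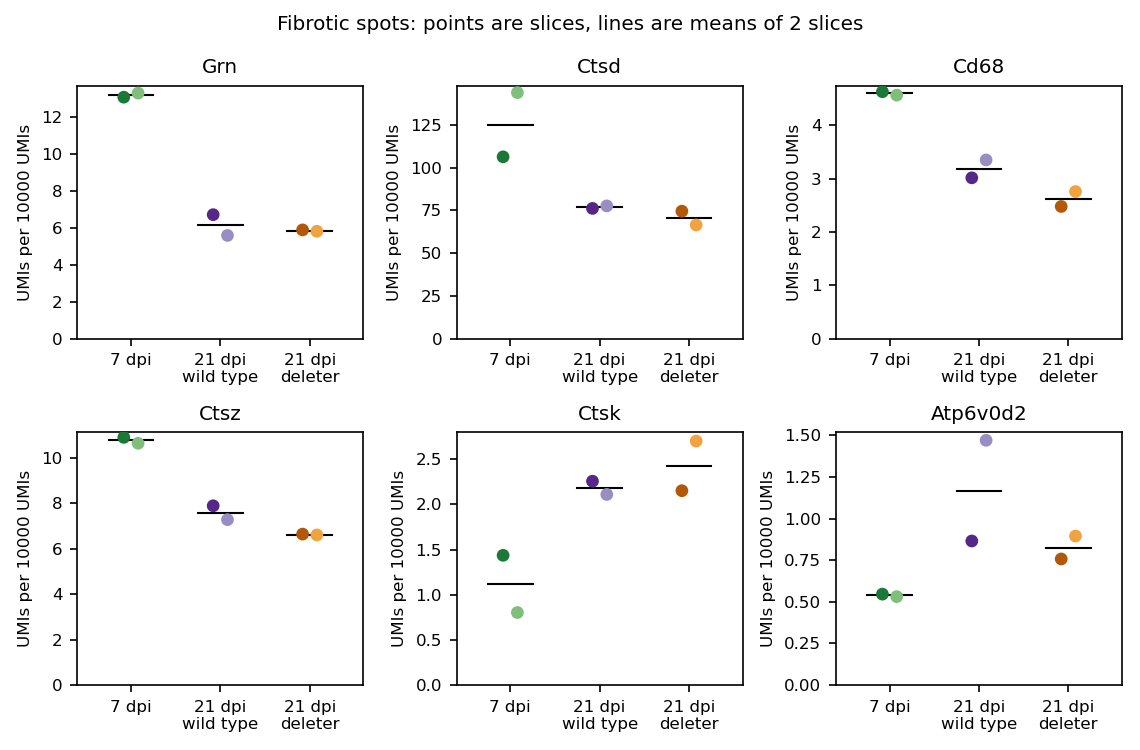
Levels in fibrotic spots (UMIs per 10000, vertical axes from 0) of 6 lysosome genes in the slices at 7 dpi, 21 dpi WT and 21 dpi deleter, with 1 point per slice and a line at the mean of 2. Grn, Ctsd, Cd68 and Ctsz lie higher at 7 dpi, and Ctsk and Atp6v0d2 lie lower.

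Over the 33 genes both slices at 7 dpi lay above both WT slices at 21 dpi in 16 and below in 11, against 24.1% and 23.6% of all genes, and the median log2 fold change was 0.19 against 0.02 for all genes. Phagocyte markers as a list gave no call here (0 of 12 by edgeR, median 0.21), while among fibroblast markers Dcn and Lum were lower at 7 dpi. The count of 5 rested on few slices: 4 genes passed without slice 1 at 7 dpi, 1 without slice 2, 2 without WT slice 1 and 3 without WT slice 2. The counts without slice 1 at 7 dpi and without WT slice 2 include genes that did not pass with all slices, such as Ctsk. The call of Cd68 and that of Ctsz were lost without any 1 of the 4 slices (adjusted p of 0.092 to 0.26 and of 0.093 to 0.23). That of Ctsd was lost without slice 2 at 7 dpi or either WT slice, and that of Atp6v0d2 without either slice at 7 dpi or WT slice 2, whereas Ctsk passed without slice 1 at 7 dpi (-1.40, adjusted p = 0.020) and without WT slice 2 (-0.94, adjusted p = 0.048).

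In other spots, outside the ring, the levels of 24 genes were higher in both slices at 7 dpi than in both WT slices at 21 dpi and those of none were lower, against 21.3% and 18.4% of all genes. Other spots reached up to the ring: of 297 and 621 at 7 dpi, 200 and 484 lay at least 6 steps from fibrotic spots. At step 6 the lysosome sum was 113 and 109 at 7 dpi against 53.8 and 73.0 in WT slices at 21 dpi. At step 10 it was 52.8 and 98.6 against 49.2 and 57.4. The part of distance was not tested. None of the 33 passed the edgeR threshold, where 0.0204% of 14714 genes did. An unadjusted p under 0.05 was found for 19 of them and for 10.5% of all genes, and DESeq2 called 14 of them and 1.41% of all genes. The largest differences were for Cd68 (1.94 ± 0.29, adjusted p = 0.13), Grn (1.91 ± 0.20, adjusted p = 0.074) and Ctsd (1.77 ± 0.36, adjusted p = 0.18). Without WT slice 2, whose other spots held 15.8 phagocyte marker UMIs per 10000 against 8.17 in WT slice 1, 12 of the 33 and 1.14% of all genes passed. The phagocyte list gave a median of 1.25 here, with 0 of 12 past the threshold by edgeR, and its part in these results was not tested.

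The contrast of fibrotic over other spots was smaller at 7 than at 21 dpi for most genes, with a median difference of -0.57 on the log2 scale against 0.03 for all genes. The limit that other spots reached up to the ring applies here as well. No gene of the 33 passed the edgeR test of this difference, where 0.42% of all genes did. An unadjusted p under 0.05 was found for 20 of them and for 14.2% of all genes, and DESeq2 called 5 of them and 1.33% of all genes. Cd68 (-1.42 ± 0.28, edgeR adjusted p = 0.053), Ctss (-1.42 ± 0.30, adjusted p = 0.064) and Creg1 (-1.03 ± 0.22, adjusted p = 0.070) came closest. Without WT slice 2 the count was 6, where 2.55% of all genes passed, Cd68 and Ctss among them (-1.84 and -1.85, adjusted p = 0.017 and 0.012).

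Deleter and WT slices at 21 dpi were compared in fibrotic spots. No lysosome gene passed the edgeR threshold, where 0.0226% of all genes did, 3 had an unadjusted p under 0.05, where 6.31% of all genes had, and DESeq2 called 0. In 21 of the 33 genes both deleter slices lay below both WT slices and in none above, against 19.9% and 17.4% of all genes, and the median log2 fold change was -0.15 against -0.01 for all genes. The largest values were for Gla (-0.65 ± 0.22), Ctsl (-0.54 ± 0.20) and Creg1 (-0.53 ± 0.15, adjusted p = 0.64). Phagocyte markers summed to 76.9 and 73.0 in the deleter and to 94.6 and 90.6 in the WT slices, and their part in this shift was not tested. A difference could not be shown with 2 slices per genotype, which does not show that there is none.

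Early after injury, 2 dpi was set beside rest in other spots, with 1 slice each and hence no test. The interval given with each ratio is an exact 95% interval that covers counting error only. Of the 33 genes 13 were at least 2-fold higher at 2 dpi and none was 2-fold lower, where 15.1% and 3.68% of 15102 genes were. Ctsc read 1.53 against 0.101 per 10000 (1843 and 158 UMIs), a ratio of 15.2 (12.9 to 17.98). Cd68 read 0.449 against 0.0567, a ratio of 7.93 (6.33 to 10.0), and it was followed by Ctsz (4.79), Ctsh (4.21) and Ctsd (3.91). In other spots Ctsc was the only gene of the 33 more than 2-fold higher at 2 dpi than in each of the 6 later slices. The later values were 0.153 to 0.572. Other spots need not be the same tissue over time: few spots passed the Col1a1 minimum at 2 dpi, so they can include lesion there. In fibrotic spots of the later slices Ctsc read 1.42 to 2.95, and in their ring 0.429 to 2.18.

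**Figure D5:**
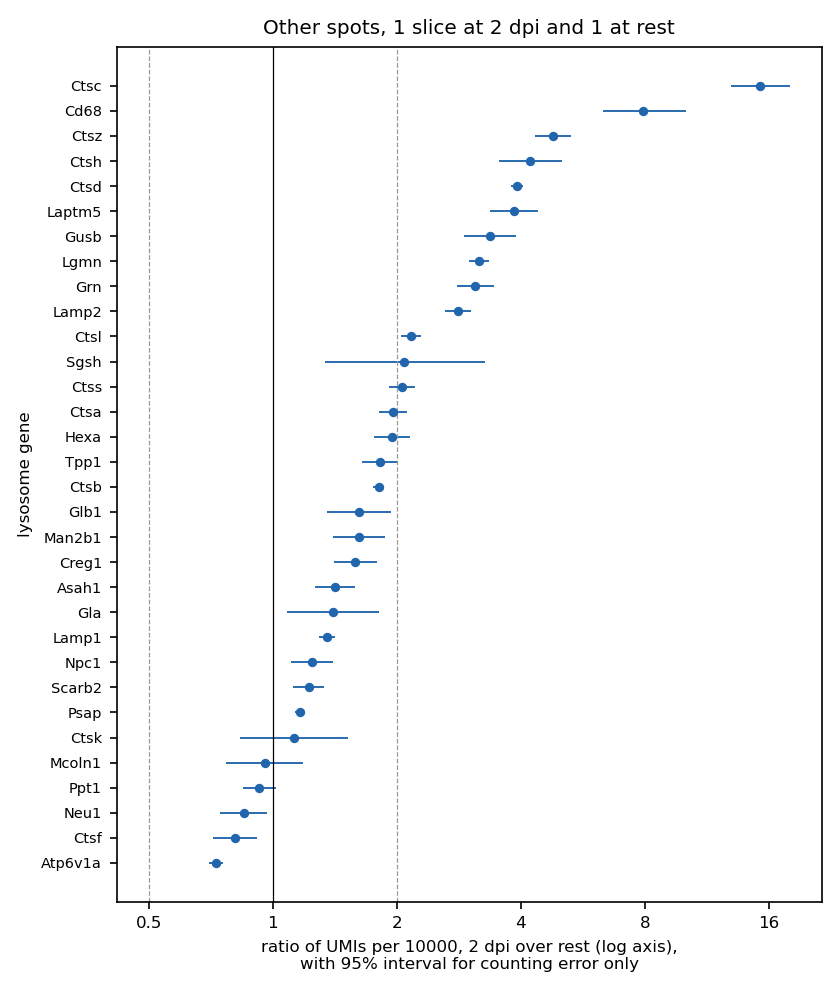
Ratio of UMIs per 10000 in other spots at 2 dpi over rest (horizontal log axis) for 32 lysosome genes, 1 slice each, with exact 95% intervals for counting error only. Ctsc (15.2) and Cd68 (7.93) lie farthest to the right, and Atp6v1a (0.727) lies farthest to the left; Atp6v0d2, with 2 and 0 UMIs, is not drawn.

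At the low end of that comparison stood Atp6v1a, with 3.40 against 4.68 and a ratio of 0.727 (0.700 to 0.756), and then Ctsf (0.809), Neu1 (0.849), Ppt1 (0.927) and Mcoln1 (0.956). Ctsk gave 1.13 (0.832 to 1.53), so the gene that separated fibrotic from other tissue most clearly among the proteases was near its resting level at 2 dpi in other spots. These left out the Col1a1 spots and their ring, which held 514 spots at 2 dpi (29.8% of the slice) and 60 at rest. At 2 dpi the ring had a median of 1181.5 UMIs per spot against 9671 in other spots, and a lysosome sum of 76.8 against 59.4. With all spots of each slice Ctsk gave 1.24 (0.924 to 1.65). In other spots Atp6v0d2 was counted with 2 UMIs at 2 dpi and 0 at rest. Phagocyte markers there read 14.6 against 3.80 per 10000, and neuron markers 25.2 against 47.3. Depth also moved with these values: 21.7% of the spots at 2 dpi held under 1000 UMIs, and among other spots the lysosome sum was 46.8 per 10000 in this class against 59.5 in deeper spots. Both exceeded the 33.3 of other spots at rest.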

How the data were processed

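Raw UMI counts per spot and gene were used as deposited. The authors made these counts with Space Ranger 2.0.0 on mm10, per the submitters' processing notes, from 10-µm sections by the study's methods (the protocol in the labels gives another unit). Spatial positions gave the connected tissue pieces and the hexagonal steps. Of 9340 spots over tissue, 4 without UMIs were left out. Which piece of the first area was at rest (1017 spots) and which at 2 dpi (1726 spots) came from the rule of this work and not from a label. Counts were summed per slice and zone. The slice being the replicate, p-values between times or genotypes measure the spread between slices. In comparisons of zones the slice was a block, which removes that spread. Their p-values measure how differences between zones varied from slice to slice, pooled over the slices and zones of the fit.

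Zones were compared with edgeR 4.0.16 (R 4.3.3; TMM, filterByExpr, quasi-likelihood F test, Benjamini-Hochberg, threshold 0.05) on 18 sums of 6 slices with the slice as a block, and times or genotypes on 6 sums of a zone. The study's own test over spots was not used. DESeq2 1.42.0 was an alternative. The scripts were tested on simulated data. Tables used Python 3.11.15, NumPy 2.4.6, pandas 2.3.3 and SciPy 1.17.1. By rule the 5 largest changes in each direction past the threshold were given in full; further members were named with their values so that all 33 are covered. The genes and lists were chosen with earlier results of these data known. Gene positions are from GENCODE M21. Intervals cover counting error only.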

Additional observations from a re-analysis of the deposited data

Results flagged for a closer look

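A single lysosome gene, the calcium channel Mcoln1, had ratios of fibrotic to ring spots that pointed one way in each slice of one time and the other way in each slice of the other. Its log2 ratio was -0.335 and -0.0303 in the 7 dpi slices, and 0.227 and 0.11 in the WT slices taken at 21 dpi. No test of this difference was made, and Mcoln1 passed the threshold at neither time. Its counts were low: in 7 dpi slice 2 it read 0.118 per 10000 in fibrotic and 0.121 in ring spots. The fibrotic spots of that slice held 846868 UMIs of all genes. The share of all genes with such opposite ratios was not counted, so this is a description.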

How the results depend on the processing

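Single-gene results were followed for genes past the threshold or 2-fold higher at 2 dpi, and for a few chosen genes below the threshold. Gains by other genes were not counted, so these numbers do not describe uncalled genes. Over 203 such results, 2096 of 2261 alternative values kept their direction and side of the threshold. Of the remaining values 140 lost and 19 gained significance, 3 moved and 3 reversed. The reversals were Mcoln1 in fibrotic over other spots at 7 dpi, -0.06 as reported, which became 0.0055 with a Col1a1 minimum of 3 and 0.067 without the slice block, and ran from -0.478 to 0.246 when a slice was left out. Counts of lysosome genes past the threshold in fibrotic over other spots, in ring over other spots at 21 dpi, in fibrotic over ring spots at 21 dpi and in 2 dpi over rest stayed within 1.5 times. Ring over other spots at 7 dpi (26) gave 11 to 23 with a slice left out. Fibrotic over ring spots at 7 dpi (7) gave 2 and 18 with Col1a1 minimums of 10 and 3, 16 without the low-count filter, 3 without the block, 2 and 19 with rings of 1 to 2 and 1 to 5 steps, and 1 to 4 with a slice left out. The difference between times (0) became 5 with a Col1a1 minimum of 3 and with DESeq2, 2 with library size alone, 11 without the filter, and 0 to 6 with a slice left out. Fibrotic spots at 7 over 21 dpi (5) gave 1 with a Col1a1 minimum of 3, 2 without the deleter slices, 3 with library size alone, 11 without the filter and 1 to 4 with a slice left out. Other spots at 7 over 21 dpi (0) gave 14 with DESeq2, 15 without the filter and 0 to 12 with a slice left out. Deleter over WT (0) gave 1 without the filter. The causes were not tested. Over all genes the counts ran from 3334 to 7331 around 7230 for fibrotic over other spots at 7 dpi, 217 to 3708 around 2922 and 346 to 2631 around 1299 for the ring at 7 and 21 dpi, 72 to 3813 around 2538 and 3410 to 6898 around 6044 for fibrotic over ring spots, 0 to 663 around 63 for the difference, 251 to 1317 around 583 and 0 to 974 around 3 for the times, and 2 to 171 around 3 for the genotypes. Depth limits Atp6v0d2, with 8 to 26 UMIs in other spots, and the slice at 2 dpi.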
